A study of Mus musculus with 9 samples.

Results

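The 7 genes described here, Upk3b, Upk1b, Bnc1, Muc16, Wt1, Msln and Lrrn4, are markers of the mesothelium, the thin cell layer that covers the outer surface of the gut. They were chosen by symbol, and every probe set (a group of short array probes read as 1 value) that names only 1 of them was taken. This gave 11 of the 45101 probe sets of the array, and 7 of the 18193 genes with a probe set of their own. Upk1b was read by 4 probe sets, Upk3b by 2, and the other 5 genes by 1 each. The 9 arrays held RNA of mouse embryonic hindgut, 3 per genotype. Ednrb null embryos were homozygous for a lacZ allele of Ednrb, the gene of endothelin receptor B. Ednrb NCC null embryos carried the Ednrb-FLEX (NCC-/-) genotype and were described as Ednrb mutant in NCC cells, with the abbreviation not spelled out and no Cre or promoter named. Wild type embryos had no allele named, and no strain was given for any group. The tissue was the terminal colon at embryonic day 14, written as 14.5 in the series text. The labels do not say whether an array held 1 embryo or a pool, so the spread behind each p-value is that between these samples and may be technical.

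The mesothelium arises from the lining of the body cavity and forms the serosa of the intestine. It covers the gut tube while smooth muscle forms beneath it. In mouse embryos some of its cells leave the layer, move inward and become smooth muscle and connective tissue of gut and vessels. Wt1 is the transcription factor best known for marking this lineage, and the uroplakin Upk3b, mesothelin and mucin 16 are among its surface proteins. Mesothelin and mucin 16 bind each other. In bulk tissue, fewer mesothelial cells and less RNA per cell cannot be told apart.

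The arrays were alike in scale, with a median intensity of 112 to 116, and correlated across genes at Pearson r of 0.9896 to 0.9971. Ednrb, given as the check of the labels, had a log2 intensity of 9.23, 9.40 and 8.77 in Ednrb null arrays, of 11.15, 11.32 and 11.04 in Ednrb NCC null arrays and of 11.08, 10.95 and 11.05 in wild type arrays. It fell by 1.89 in Ednrb null against wild type (SE 0.14, limma adjusted p = 3.91e-05). Ednrb NCC null differed from wild type by 0.15 (adjusted p = 0.653). Where the probes lie relative to the altered part of either allele is not given in the sources used here. The log2 ratio of the 3' to the 5' Actb control probe sets, a sign of RNA integrity, was 0.80 to 0.90 in Ednrb null arrays and 1.03 to 1.40 in Ednrb NCC null arrays, against 1.08 to 1.32 in wild type.

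One wild type array, 1B, stood apart in these genes. All 7 genes, and all 11 of their probe sets, had their lowest value in wild type 1B, where 21.2% of all genes had theirs. Upk3b lay at 6.04 there, on the log2 scale used throughout, against 9.30 to 10.46 in the other 8 arrays. Bnc1 lay at 6.71 against 8.94 to 9.82, Muc16 at 5.03 against 7.27 to 8.60 and Wt1 at 7.12 against 8.34 to 8.84. The gap was 0.79 for Lrrn4, 0.60 for Upk1b and only 0.04 for Msln. Within wild type, the mean of arrays 1C and 1D was above array 1B by 11.2-fold for Upk3b, 5.80-fold for Bnc1, 5.40-fold for Muc16 and 2.48-fold for Wt1.

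Upk3b, Muc16 and Bnc1 ranked 1, 2 and 3 of all 18193 genes by the gap of wild type 1B below the lowest other array. Only 13 genes lay at least 1 below every other array in wild type 1B. Of these, 4 were members (Upk3b, Muc16, Bnc1 and Wt1) and 4 came from another list of 22 measured mesothelial genes (Podxl, Myrf, Cldn15 and Ildr2). Members and list were chosen with earlier results of these data known, so this overlap is a description only. The other 5, named after their values were seen, were Nxnl2, Il18, Rpp25, Tm4sf5 and Fabp4. The same gap was found for 4 genes in Ednrb NCC null 2, 2 in wild type 1C, 1 in Ednrb null 41 and 0 in the remaining 5 arrays, and none of these genes was a member or in that list. Differences of the 7 genes from wild type are therefore given with and without array 1B. That array was picked out by these same values, so any p-value without it is conditional on that choice. Such a fit also rests on 2 wild type arrays.

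**Figure D1:**
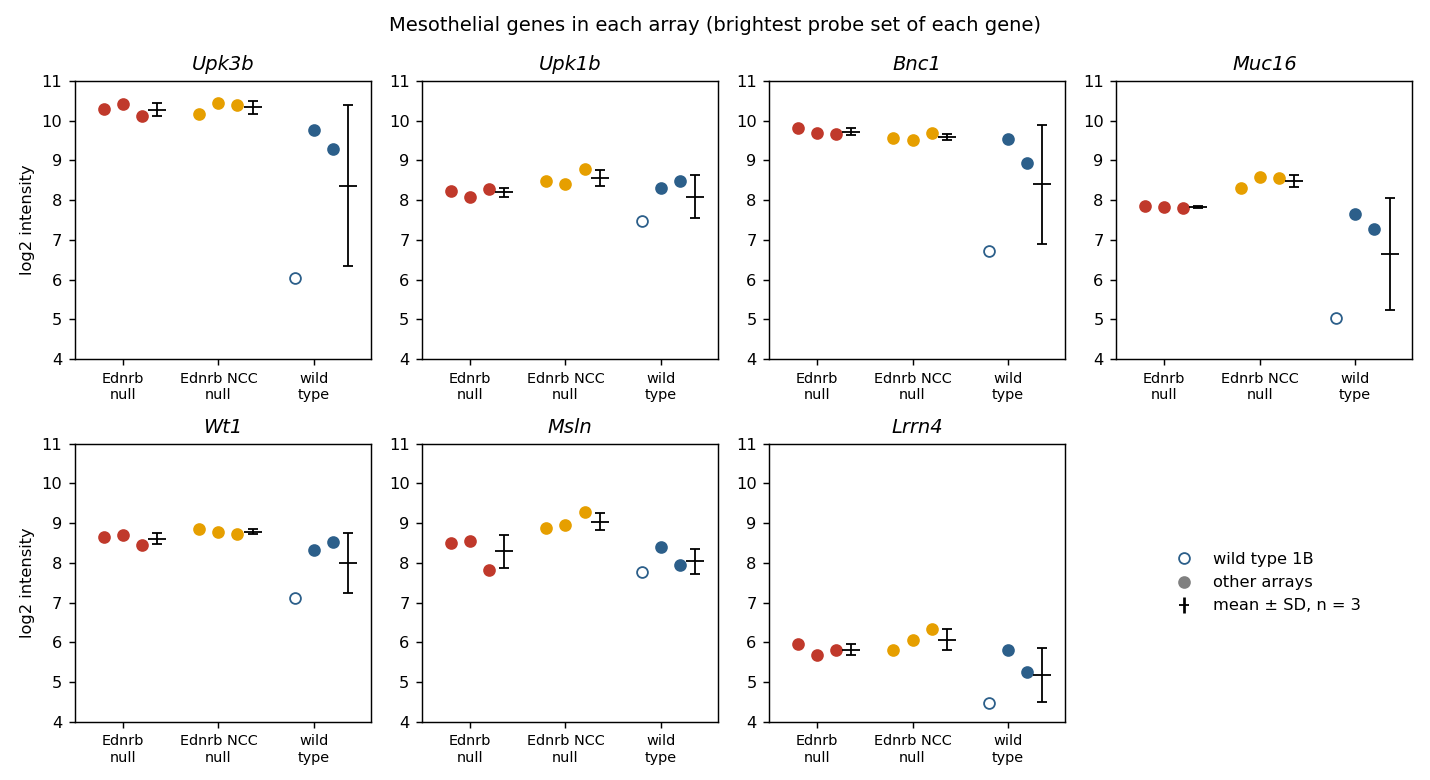
Log2 intensity of the 7 mesothelial genes (brightest probe set of each) in each array, by genotype; filled points are single arrays, the open circle is wild type 1B, and the bar is the mean ± SD (n = 3). Wild type 1B is the lowest array in every panel, at 6.04 for Upk3b against 9.30 to 10.46 elsewhere.

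The mean log2 level of the 7 genes was 1.83 below its 9-array mean in wild type 1B, and lay between -0.24 and 0.62 in the other arrays. The 22 other mesothelial genes were at -0.26 in wild type 1B, also their lowest array, and the enteric neural crest list was at 0.55, the lowest of the 3 wild type arrays. In the same array the list of gut epithelium was at -0.10, visceral smooth muscle at -0.05, fibroblasts at 0.22, macrophages at -0.11 and blood and lymphatic endothelium at -0.27, the lowest of any array for the last. Urothelium, the lining of the bladder, was at 0.49, the highest of the 9 arrays, with wild type 1D at 0.44 and 1C at -0.77. In this list Krt14 and Krt5 varied most (SE 0.77 and 0.66 in Ednrb null against wild type). The SE was 0.15, 0.17 and 0.14 for Upk1a, Upk2 and Upk3a. The summed intensity of the 9 urothelium genes was 1593 to 2976 in Ednrb null arrays and 2257 to 2518 in Ednrb NCC null arrays, against 1405 to 4732 in wild type. The summed intensity of the 10 endothelial genes was 4589 to 4939 in Ednrb null arrays and 3853 to 4736 in Ednrb NCC null arrays, against 4074 to 5070 in wild type. The part of these lists in the low values of array 1B was not tested.

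**Figure D2:**
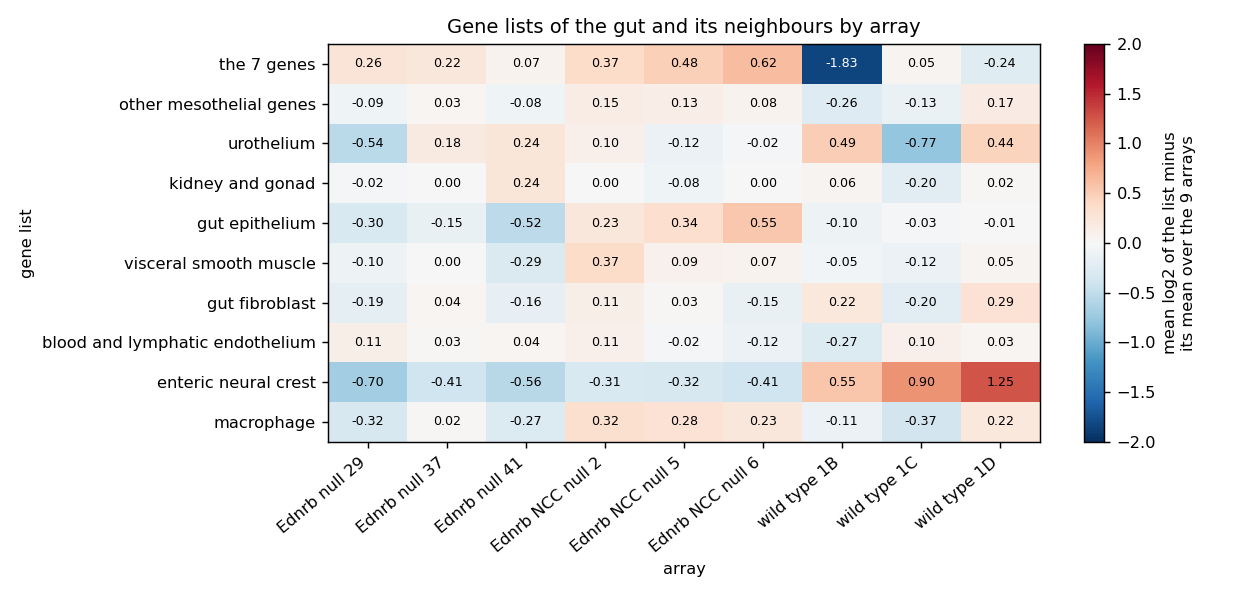
Mean log2 intensity of each gene list (rows) in each array (columns), minus the mean of that list over the 9 arrays. The 7 mesothelial genes are at -1.83 in wild type 1B, where gut epithelium is at -0.10 and visceral smooth muscle at -0.05.

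Promoter sequences (250 bases before to 50 after the start of transcription) are shown because all 7 genes shared their lowest value in wild type 1B. RefSeq's GRCm38.p6 promoter table held 4 of the 7, namely Upk3b, Bnc1, Muc16 and Lrrn4. Upk1b, Wt1 and Msln have no promoter entry in it. Capitals mark matches on either strand to GCGNGGGNG (sites of the zinc finger factors WT1 and EGR), GGAATG (TEAD factors), GGGCGG (the GC box of Sp factors) and TATAAA (the TATA box). They are Upk3b, plus strand at chr5:136038246-136038545, Bnc1, minus strand at chr7:81992250-81992549, Muc16, minus strand at chr9:18674554-18674853, and Lrrn4, minus strand at chr2:132880813-132881112. The Lrrn4 window lies inside the RefSeq span of the gene (chr2:132866686-132894010), not at its outer end. The Muc16 window crosses the outer end of its RefSeq span (chr9:18495445-18674821), and its start of transcription lies inside that span.
Upk3b: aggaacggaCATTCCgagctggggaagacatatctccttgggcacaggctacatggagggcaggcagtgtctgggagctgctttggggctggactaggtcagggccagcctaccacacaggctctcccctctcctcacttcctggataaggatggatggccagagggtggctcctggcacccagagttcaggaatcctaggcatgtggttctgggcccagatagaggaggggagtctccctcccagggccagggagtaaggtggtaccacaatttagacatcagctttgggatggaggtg
Bnc1: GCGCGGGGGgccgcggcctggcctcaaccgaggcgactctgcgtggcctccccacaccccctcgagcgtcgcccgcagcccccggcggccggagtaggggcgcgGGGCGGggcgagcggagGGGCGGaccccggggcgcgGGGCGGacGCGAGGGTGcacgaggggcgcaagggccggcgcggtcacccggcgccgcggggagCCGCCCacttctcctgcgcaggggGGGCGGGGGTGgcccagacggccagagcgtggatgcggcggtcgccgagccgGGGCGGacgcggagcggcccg
Muc16: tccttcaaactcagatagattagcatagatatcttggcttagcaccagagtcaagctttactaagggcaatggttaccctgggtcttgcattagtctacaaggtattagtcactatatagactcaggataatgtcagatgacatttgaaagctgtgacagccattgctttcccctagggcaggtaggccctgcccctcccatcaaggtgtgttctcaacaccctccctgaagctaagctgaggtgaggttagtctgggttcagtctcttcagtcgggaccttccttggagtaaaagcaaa
Lrrn4: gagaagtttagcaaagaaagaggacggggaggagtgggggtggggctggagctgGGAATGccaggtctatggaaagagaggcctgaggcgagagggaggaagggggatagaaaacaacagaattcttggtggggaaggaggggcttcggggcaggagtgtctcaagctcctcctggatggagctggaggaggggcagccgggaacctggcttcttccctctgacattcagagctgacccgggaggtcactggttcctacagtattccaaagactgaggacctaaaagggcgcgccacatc

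The 4 promoters differed in make-up, with a GC content of 83.3% in Bnc1, 58.7% in Upk3b, 58.0% in Lrrn4 and 46.7% in Muc16. GGAATG stood once in Upk3b, on the minus strand, and once in Lrrn4, and is found in 14.7% of the 32817 promoters of the table. GGGCGG matched 6 times in Bnc1 alone (35.6% of promoters hold it). GCGNGGGNG matched 3 times in Bnc1 alone (12.3%), once overlapping a GC box. TATAAA was in none of the 4 (13.6%). The Muc16 window held none of these motifs. A match describes the letters and is no evidence of binding.

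Upk3b, a uroplakin made by mesothelial cells, had the widest range over the 9 arrays of the 7 genes. Its brightest probe set had log2 intensities of 10.29, 10.43 and 10.11 in Ednrb null 29, 37 and 41, of 10.16, 10.46 and 10.40 in Ednrb NCC null 2, 5 and 6, and of 6.04, 9.76 and 9.30 in wild type 1B, 1C and 1D. All 6 mutant arrays lay above all 3 wild type arrays. Over all arrays the difference from wild type was 1.91 in Ednrb null (SE 0.71, limma adjusted p = 0.166) and 1.97 in Ednrb NCC null (SE 0.71, adjusted p = 0.147), and neither passed. Without array 1B, which held the lowest value of this gene, the differences were smaller but much tighter, and both passed. Leaving out that value narrows the spread by construction. Upk3b then rose by 0.75 in Ednrb null (1.68-fold, SE 0.15, adjusted p = 0.0316) and by 0.81 in Ednrb NCC null (1.75-fold, SE 0.15, adjusted p = 0.0305). The dimmer probe set, drawn from the same transcript accession, gave 0.72 and 0.77 without array 1B (adjusted p = 0.0228 and 0.0282 over all probe sets).

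Muc16, a large membrane mucin known in humans as the tumour antigen CA125, was the other gene with all 6 mutant arrays above wild type, which makes 2 of 7. Of all genes, 7.04% lay above wild type 1C and 1D in all 6 mutant arrays. It had 7.84, 7.84 and 7.81 in Ednrb null arrays, 8.31, 8.60 and 8.56 in Ednrb NCC null arrays, and 5.03, 7.65 and 7.27 in wild type 1B, 1C and 1D. The 3 groups thus did not overlap, with Ednrb NCC null highest. The difference from wild type was 1.84 in Ednrb NCC null (SE 0.50, limma adjusted p = 0.0612) and 1.18 in Ednrb null (SE 0.50, adjusted p = 0.224). Without array 1B, Muc16 rose by 1.03 in Ednrb NCC null (2.04-fold, SE 0.13, adjusted p = 0.00433), while in Ednrb null it stood at 0.37 (SE 0.13, adjusted p = 0.212). Between the mutants the difference was -0.66 (95% interval -1.76 to 0.44, adjusted p = 0.534) over all arrays. The same difference of -0.66 passed once array 1B no longer widened the shared spread (SE 0.12, adjusted p = 0.0105).

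Msln, the precursor of mesothelin, a lipid-anchored surface protein, was the 1 gene that passed over all 9 arrays. Its values were 8.49, 8.56 and 7.81 in Ednrb null arrays, 8.87, 8.94 and 9.28 in Ednrb NCC null arrays, and 7.77, 8.39 and 7.96 in wild type 1B, 1C and 1D. Every Ednrb NCC null array was above every array of the other 2 groups. Msln rose by 0.99 in Ednrb NCC null against wild type, or 1.99-fold (SE 0.21, limma adjusted p = 0.0223). The call was lost without array 1B (difference 0.86, adjusted p = 0.0946), without Ednrb NCC null 5 (1.03, adjusted p = 0.0723) and without Ednrb NCC null 6 (0.87, adjusted p = 0.101). Ednrb null differed from wild type by 0.25 (95% interval -0.21 to 0.70, adjusted p = 0.574; 0.11 without array 1B, adjusted p = 0.878) and from Ednrb NCC null by -0.74 (SE 0.21, adjusted p = 0.0589). The gut epithelial list moved alongside. Its mean log2 level was 9.83 to 10.19 in Ednrb null arrays and 10.58 to 10.89 in Ednrb NCC null arrays, against 10.24 to 10.34 in wild type, and its lowest array, Ednrb null 41, was also the lowest mutant array of Msln. Over the 9 arrays Msln and that list had Pearson r = 0.79 as a description, and 0.84 over the 8 without 1B. For Upk1b, r with that list was 0.52 and 0.77 over 9 and 8 arrays, and for Muc16 0.38 and 0.68. It was 0.28 and 0.54 for Wt1 and 0.34 and 0.46 for Lrrn4. It was 0.17 and 0.20 for Upk3b and 0.08 and -0.15 for Bnc1. The epithelial list was not alone in this. Msln had r of 0.59 and 0.625 with visceral smooth muscle and 0.53 and 0.53 with macrophages, over 9 and 8 arrays. With fibroblasts it was -0.31 and -0.12. For Wt1, r was 0.33 and 0.76 with smooth muscle and 0.37 and 0.74 with macrophages. For Bnc1 these were 0.04 and -0.23, and 0.05 and -0.405. Upk3b and Bnc1 had larger r with other lists, again over 9 and 8 arrays. With enteric neural crest r was -0.51 and -0.90 for Upk3b, and -0.48 and -0.83 for Bnc1. With endothelium it was 0.73 and -0.31 for Upk3b, and 0.79 and 0.025 for Bnc1. With fibroblasts it was -0.53 and -0.43 for Upk3b, and -0.605 and -0.79 for Bnc1. Both values of such a pair share an array and its RNA, and the part of epithelial RNA in the Msln result was not tested.

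Upk1b, a uroplakin of the tetraspanin family that the bladder lining also makes, gave different answers by probe set. The brightest, an x_at set whose probes may match other transcripts, had 8.23, 8.07 and 8.28 in Ednrb null arrays, 8.48, 8.41 and 8.78 in Ednrb NCC null arrays, and 7.48, 8.31 and 8.49 in wild type 1B, 1C and 1D. It differed from wild type by 0.10 in Ednrb null (limma adjusted p = 0.846) and by 0.47 in Ednrb NCC null (adjusted p = 0.263), and by -0.20 and 0.16 without array 1B (adjusted p = 0.534 and 0.622). A second set from the same accession, 1435831_at, read 7.69, 7.91 and 7.90 in Ednrb null arrays, 8.63, 8.62 and 9.09 in Ednrb NCC null arrays, and 7.42, 8.34 and 8.60 in wild type 1B, 1C and 1D. Here Ednrb null lay below every array but wild type 1B. The difference between the mutants was -0.95 (SE 0.25, adjusted p = 0.0608 over all probe sets), and it passed without array 1B (SE 0.14, adjusted p = 0.00745).

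The remaining sets of Upk1b, from other accessions, placed both mutants above wild type. Set 1439760_x_at rose by 0.78 in Ednrb NCC null (SE 0.19, limma adjusted p = 0.0471 over all probe sets) and kept its call without array 1B (0.51, adjusted p = 0.0435). Set 1457065_at rose by 0.65 (SE 0.13, adjusted p = 0.0217) and lost its call without that array (0.50, adjusted p = 0.063). In Ednrb null they stood at 0.61 and 0.45 (adjusted p = 0.0997 and 0.0813), where set 1435831_at stood at -0.29 (adjusted p = 0.62). Without array 1B these 3 differences were 0.34, 0.31 and -0.64 (adjusted p = 0.14, 0.243 and 0.067). Set 1435831_at in Ednrb NCC null differed from wild type by 0.66 (adjusted p = 0.202), and by 0.31 without array 1B (adjusted p = 0.456). The direction for Upk1b in Ednrb null thus depends on which probe set is read. In all, 3 of the 11 member probe sets passed in Ednrb NCC null, all higher, where 2.06% of all probe sets did. In Ednrb null 0 of 11 passed, where 5.03% of all probe sets passed in either direction.

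**Figure D3:**
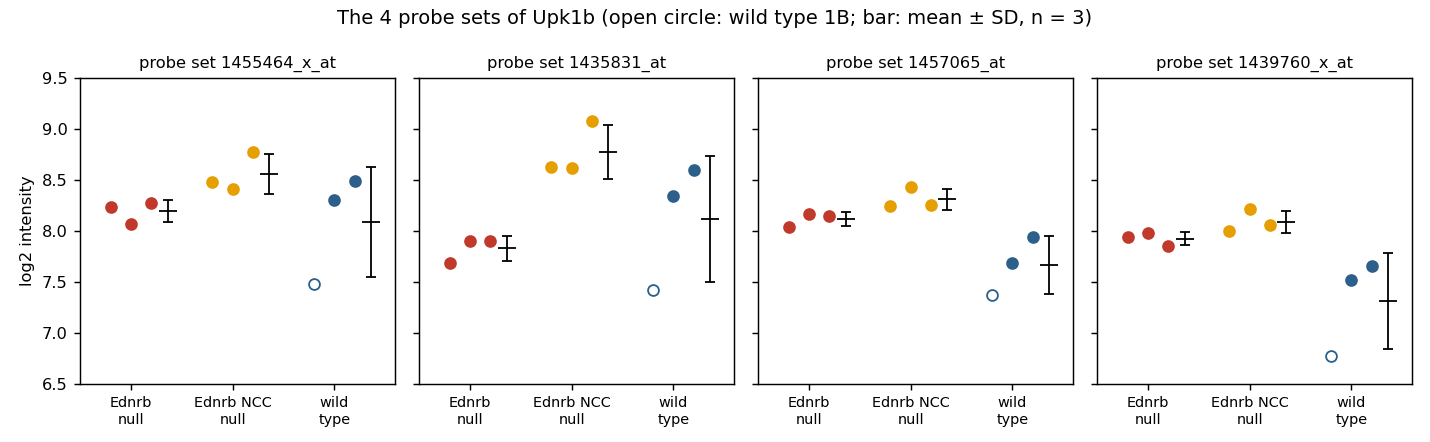
Log2 intensity of Upk1b in each array for its 4 probe sets, by genotype; the open circle is wild type 1B and the bar the mean ± SD (n = 3). Ednrb null lies below Ednrb NCC null in every panel, by 0.95 in set 1435831_at and by 0.17 to 0.36 in the others.

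Lrrn4, a membrane protein with leucine-rich repeats, was the dimmest of the 7 and lay below the array median of 6.80 to 6.85 in every array. Its values were 5.96, 5.68 and 5.81 in Ednrb null arrays, 5.81, 6.07 and 6.33 in Ednrb NCC null arrays, and 4.47, 5.81 and 5.26 in wild type 1B, 1C and 1D. The value of wild type 1C equalled that of one array in each mutant group. The difference from wild type was 0.89 in Ednrb NCC null (SE 0.27, limma adjusted p = 0.0858) and 0.64 in Ednrb null (SE 0.27, adjusted p = 0.215). Without array 1B these were 0.54 and 0.28 (adjusted p = 0.196 and 0.552). Differences between dim values are understated by this kind of summary.

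The transcription factors of the set differed less once array 1B was set aside. Wt1, a zinc finger factor of mesothelium, kidney and gonad, had 8.65, 8.71 and 8.46 in Ednrb null arrays, 8.84, 8.78 and 8.72 in Ednrb NCC null arrays, and 7.12, 8.34 and 8.53 in wild type 1B, 1C and 1D. All Ednrb NCC null arrays were above the other 2 groups. Its difference from wild type was 0.79 in Ednrb NCC null (SE 0.28, limma adjusted p = 0.142) and 0.61 in Ednrb null (SE 0.28, adjusted p = 0.261), and 0.35 and 0.17 without array 1B (adjusted p = 0.152 and 0.529). Bnc1, the zinc finger protein basonuclin 1, had 9.82, 9.70 and 9.67 in Ednrb null arrays, 9.56, 9.53 and 9.68 in Ednrb NCC null arrays, and 6.71, 9.55 and 8.94 in wild type 1B, 1C and 1D. Wild type 1C lay within the range of Ednrb NCC null. Bnc1 differed from wild type by 1.33 in Ednrb null (SE 0.53, adjusted p = 0.194) and by 1.19 in Ednrb NCC null (SE 0.53, adjusted p = 0.242). Without array 1B the differences were 0.48 and 0.34 (adjusted p = 0.17 and 0.335).

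Wt1 is also made by the developing kidney and gonad, which lie close to the hindgut. The 10 measured genes of that list had a summed intensity of 1811 to 2075 in Ednrb null arrays and 1673 to 2032 in Ednrb NCC null arrays, against 1500 to 1902 in wild type, and none passed in any comparison. Its members were mixed in level. Pax8, Lhx1, Wnt9b and Gata4 had means of 4.83, 4.95, 5.87 and 5.93 in Ednrb null, below the array median. Osr1 and Sall1 had 9.87 and 7.11 in Ednrb null, against 9.79 and 7.27 in wild type. Six2, of kidney progenitors, had a mean of 8.76 in Ednrb null, against 8.04 in wild type, with no overlap of arrays (difference 0.72, adjusted p = 0.24; 0.96 without array 1B, adjusted p = 0.213). Nphs1, the podocyte gene of nephrin, differed from wild type by 0.36 in Ednrb null, also without overlap (adjusted p = 0.129). The gonad marker Nr5a1 had 5.99 and 5.99 in Ednrb null and Ednrb NCC null, against 5.84 in wild type, below the array median. Of the bladder list, Psca, a lipid-anchored surface protein, rose in both mutants, by 0.57 in Ednrb null (adjusted p = 0.0399; 0.55 without array 1B, adjusted p = 0.131) and by 1.03 in Ednrb NCC null (adjusted p = 0.00259; 1.01 without array 1B, adjusted p = 0.0145). The other 8 genes of that list did not pass in any comparison. Its uroplakins Upk1a and Upk2 had means of 8.57 and 8.45 in Ednrb NCC null, against 8.13 and 8.66 in wild type, and Upk3a 6.66, against 6.41, below the array median. The part of kidney RNA in the Wt1 values was not tested. The part of bladder RNA in the Upk1b values was not tested.

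Set out by comparison, 0 of the 7 genes passed in Ednrb null against wild type, where 5.04% of all genes passed (limma, adjusted p under 0.05), and 4 of 7 had an unadjusted p under 0.05, against 19.2% of all genes. All 7 differences were above 0, with a median of 0.64 against 0.04 over all genes, of which 60.2% were above 0. Without array 1B 1 of 7 passed (Upk3b), against 2.72% of all genes, and the median was 0.28, with Upk1b at -0.20. Leaving out wild type 1C instead, which keeps the low array, brought Upk3b, Bnc1 and Lrrn4 past the threshold (2.61, 1.90 and 0.95, adjusted p = 0.0379, 0.0297 and 0.0226). Upk3b, Bnc1 and Muc16 had all Ednrb null arrays above all wild type arrays, as did 14.4% of genes. Adding the Actb ratio to the model left a median of 0.05, and none of the 7 passed. That ratio was lower in every Ednrb null array than in any other array. Among wild type arrays it was highest in 1B (1.32, against 1.08 and 1.14 in 1C and 1D). The highest ratio of all was in Ednrb NCC null 2 (1.40). There the mean log2 level of the 7 genes was 8.58, the lowest of its group, against 6.37 in wild type 1B. The fit cannot tell the ratio apart from the Ednrb null genotype, and the part of array 1B in it was not tested.

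In Ednrb NCC null against wild type 1 of 7 passed (Msln), against 4.96% of all genes, and 6 of 7 had an unadjusted p under 0.05, against 19.6%. All 7 differences were again above 0, with a median of 0.99 against 0.02 over all genes, of which 56% were above 0. Without array 1B 2 of 7 passed (Upk3b and Muc16), against 1.93% of all genes, and the median was 0.54. Without wild type 1C, Upk3b, Muc16, Msln and Lrrn4 passed (adjusted p = 0.0475, 0.0176, 0.0121 and 0.0121), and without wild type 1D, Muc16, Wt1 and Msln did (adjusted p = 0.0473, 0.0469 and 0.048). Upk3b, Muc16, Wt1 and Msln had all Ednrb NCC null arrays above all wild type arrays, as did 15.6% of genes. Adding the Actb ratio gave a median of 1.02, and Muc16, Msln and Lrrn4 passed (adjusted p = 0.0265, 0.0183 and 0.044). The comparisons with wild type share the same 3 wild type arrays.

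**Figure D4:**
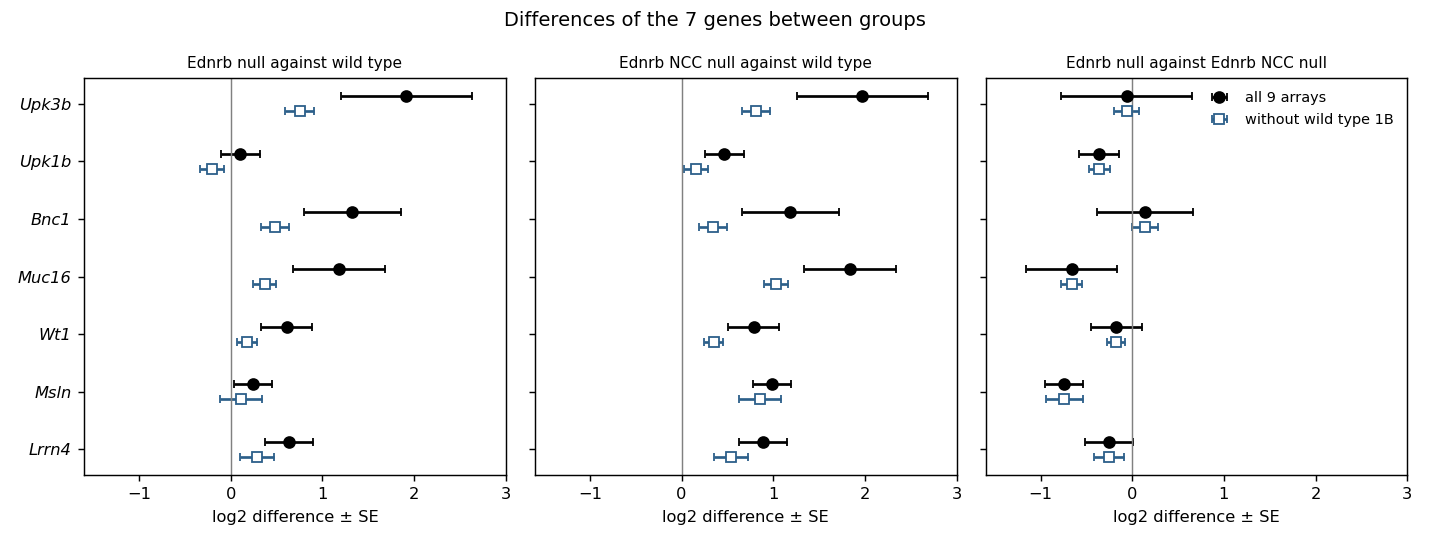
Log2 difference (± SE) of the 7 genes in the 3 comparisons, from all 9 arrays (filled circles) and without wild type 1B (open squares). In Ednrb null against wild type, Upk3b is at 1.91 with that array and 0.75 without it, and between the mutants only the error bars change.

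Between the mutants, 0 of the 7 genes passed in Ednrb null against Ednrb NCC null, where 6.52% of all genes did, and 1 of 7 had an unadjusted p under 0.05 (Msln), against 19.7%. The differences of 6 genes were below 0, with a median of -0.25 against 0.01 over all genes. Upk1b, Muc16, Wt1 and Msln had all Ednrb null arrays below all Ednrb NCC null arrays, as did 12.4% of genes. The interval for Upk3b was wide, at -0.06 with 95% limits of -1.63 and 1.51, as was that for Bnc1, at 0.14 with limits of -1.02 and 1.30. Without array 1B 1 of 7 passed (Muc16), against 6.1% of all genes, and without wild type 1C it was Msln (adjusted p = 0.0324). In the model with the Actb ratio, whose range in Ednrb null lay below the other groups, the median was -1.04, and Bnc1 was at -1.04 (adjusted p = 0.615).

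By the brightest probe set and over all 9 arrays, the levels were ordered Ednrb NCC null, Ednrb null, wild type in 6 of the 7 genes by group mean, and Ednrb null stood first for Bnc1, whose Ednrb NCC null and wild type arrays overlapped. The share of all genes in that order was not counted, so it is a description only. For Upk3b, Ednrb null differed from Ednrb NCC null by only -0.06 (SE 0.71). For Upk1b this order rested on array 1B, since without it Ednrb null was 0.20 below wild type (difference -0.20), and in set 1435831_at Ednrb null had the lowest mean with array 1B included (7.83, against 8.78 for Ednrb NCC null arrays and 8.12 for wild type). Single arrays of the mutants overlapped for Upk3b, Bnc1 and Lrrn4, as did those of Ednrb null and wild type for Upk1b, Msln, Lrrn4 and Wt1. Of the 21 pairs of members, the median Pearson r over the 9 arrays was 0.86, from 0.55 for Bnc1 and Msln to 0.99 for Upk3b and Bnc1. Over the 8 arrays without 1B the median was 0.62, from -0.28 for Upk1b and Bnc1 to 0.86 for Muc16 and Msln. These are descriptions over arrays that share a genotype in groups of 3.

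Of the 22 measured genes of the other mesothelial list, 0 rose and 1 fell in Ednrb null against wild type, where 2.65% of all genes rose and 2.39% fell, with a median of -0.02 against 0.04 over all genes. In Ednrb NCC null 3 rose and 2 fell, where 3.7% of all genes rose and 1.25% fell, with a median of 0.13 against 0.02. Several of them are made by other gut cells too, such as the keratins Krt7 and Krt19 by epithelium, Tcf21 by mesenchyme, and Podxl and Pdpn by endothelium. Without array 1B 0 rose and 1 fell in Ednrb null (1.13% and 1.59% of all genes), while in Ednrb NCC null 2 rose and 2 fell (1.17% and 0.764%).

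Ildr2 rose by 1.23 in Ednrb NCC null (SE 0.29, limma adjusted p = 0.0385) and kept its call without array 1B (0.79, adjusted p = 0.0225). It had 7.87 to 8.09 in the 3 Ednrb NCC null arrays, against 5.86, 6.95 and 7.45 in wild type 1B, 1C and 1D. Sbspon rose by 0.95 (adjusted p = 0.0228), and by 1.05 without array 1B (adjusted p = 0.049), while Aldh1a1, an enzyme that makes retinoic acid, rose by 0.47 (adjusted p = 0.0394) and lost its call (0.36, adjusted p = 0.135). Efemp1, a matrix protein also known as fibulin 3, fell by 1.03 in Ednrb NCC null (adjusted p = 0.00141), at 7.98, 8.02 and 7.61 there, against 9.06, 8.74 and 8.90 in wild type. Podoplanin, encoded by Pdpn and also made by lymphatic endothelium, fell in both mutants, by 0.64 in Ednrb null (adjusted p = 0.0195) and by 0.85 in Ednrb NCC null (adjusted p = 0.00575). The falls of Efemp1 and Pdpn ran against the direction of the 7 genes and kept their calls without array 1B (-0.95 for Efemp1 in Ednrb NCC null, and -0.68 and -0.89 for Pdpn in Ednrb null and Ednrb NCC null).

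Between the mutants, 1 of the 22 rose and 3 fell in Ednrb null against Ednrb NCC null, where 2.07% of all genes rose and 4.46% fell. Efemp1 was higher by 0.88 (SE 0.13, limma adjusted p = 0.00282). Sbspon fell by 0.86 (adjusted p = 0.0285), Krt19 by 0.54 (adjusted p = 0.03) and Krt7 by 0.54 (adjusted p = 0.0396), and without array 1B only Krt7 lost its call (adjusted p = 0.0503). Of the 14 genes of the gut epithelial list, which holds neither keratin, 8 fell in the same comparison and 0 rose. In Ednrb null against wild type the nearest to a call after Pdpn were Ildr2 at 1.03 (adjusted p = 0.0755), Dmkn at -1.19 (adjusted p = 0.15), Myrf at 0.65 (adjusted p = 0.223) and Podxl at 0.70 (adjusted p = 0.257). Without array 1B they were at 0.58, -1.50, 0.21 and 0.21 (adjusted p = 0.0602, 0.142, 0.29 and 0.539).

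**Figure D5:**
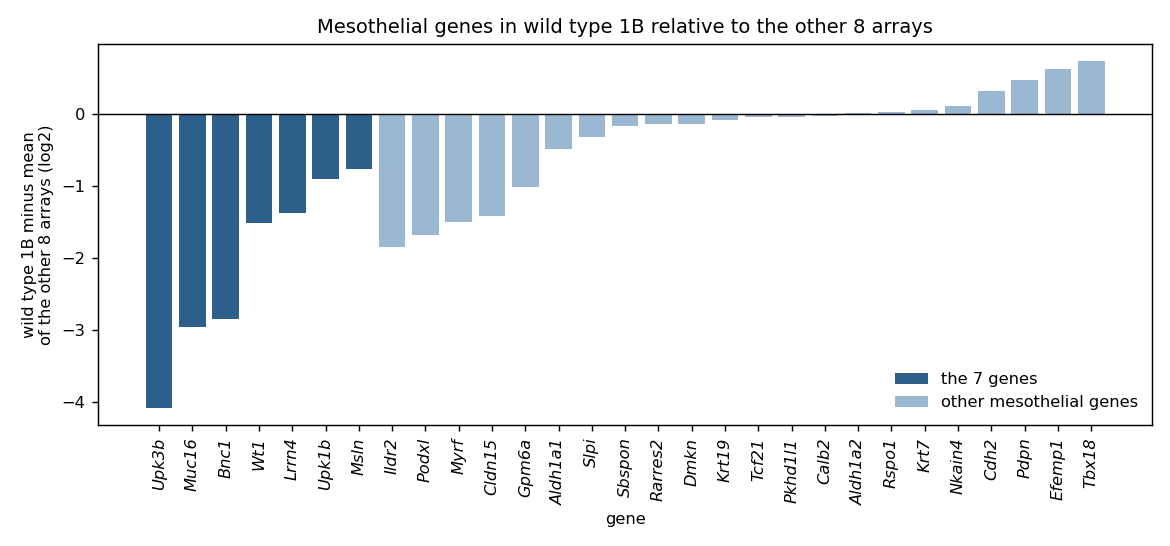
Log2 intensity in wild type 1B minus the mean of the other 8 arrays, for the 7 genes (dark bars) and 22 other mesothelial genes (light bars). The 7 genes range from -4.08 (Upk3b) to -0.76 (Msln), and Ildr2, Podxl, Myrf, Cldn15 and Gpm6a range from -1.85 to -1.02.

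Podxl, Myrf and the other genes low in wild type 1B also led the search for genes whose pattern resembled the 7. Likeness was the Pearson r over the 9 arrays with the mean of the 7 standardized genes, among 11314 other genes with a mean log2 of at least 7, of which 0.628% had r above 0.9. The 10 closest were Podxl (0.98), Il18 (0.97), Tmem151a (0.97), Myrf (0.97), Mrps23 (0.96), Ptges3l (0.96), Hoxa11os (0.96), Nxnl2 (0.96), Edn3 (0.95) and Tm4sf5 (0.95). Over the 8 arrays without 1B, with the mean recomputed, their r was 0.73 to 0.91. For Upk3b alone the 5 closest were Myrf (0.99), Podxl (0.98), Nxnl2 (0.98), Fabp4 (0.96) and Mettl5 (0.96), with 0.72 to 0.92 without array 1B. All 15 of these values of r were lower without array 1B. Ranked over the 8 arrays instead, the 10 closest to the 7 genes were led by Oard1 (0.97), Ahcy (0.96), Taf13 (0.95) and Nat2 (0.95), and held none of the 10 named first, so the ranking rests on array 1B.

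Podxl, which encodes the sialomucin podocalyxin, had 10.23, 9.92 and 9.93 in Ednrb null arrays, 10.03, 10.15 and 10.22 in Ednrb NCC null arrays, and 8.33, 9.98 and 9.66 in wild type 1B, 1C and 1D. Without array 1B it differed from wild type by 0.21 for Ednrb null arrays and 0.32 for Ednrb NCC null arrays (limma adjusted p = 0.539 and 0.291). Myrf, a membrane-bound transcription factor, had 10.50, 10.50 and 10.49 in Ednrb null arrays, 10.47, 10.55 and 10.60 in Ednrb NCC null arrays, and 8.96, 10.30 and 10.27 in wild type. Edn3 encodes endothelin 3, the ligand of the receptor that Ednrb encodes. It had 8.42, 8.23 and 8.37 in Ednrb null arrays, 8.33, 8.38 and 8.59 in Ednrb NCC null arrays, and 7.38, 8.28 and 7.90 in wild type 1B, 1C and 1D. Its difference from wild type was 0.49 for Ednrb null arrays and 0.58 for Ednrb NCC null arrays (adjusted p = 0.165 and 0.0981), and 0.25 and 0.35 without array 1B (adjusted p = 0.439 and 0.244). Il18, the gene of a cytokine, was higher by 1.12 in Ednrb NCC null (adjusted p = 0.0349), and by 0.71 without array 1B (adjusted p = 0.0126). Podxl, Myrf, Edn3 and Il18 were picked by their pattern over these same arrays. Their differences and p-values are therefore conditional on that choice and are a description only.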

How the data were processed

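Hindgut RNA (150 ng of total RNA per cRNA preparation, per the labels' protocols) was measured on 9 Affymetrix MOE430 version 2 arrays. The deposited intensity values came from RMA, per the submitters' processing notes, with no version given in the sources used here. Values were on the linear scale (5.69 to 61637) and were converted to log2 with no pseudocount. RMA pulls dim differences toward 0. Precision is limited by the number of arrays.

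Of 45101 probe sets, 64 were controls, 34945 named 1 gene, 932 several and 9160 none. Each gene was read by its brightest probe set (18193 genes, of which 18032 matched RefSeq's GRCm38.p6 table by Entrez ID). Group means were estimated from the 9 arrays together in limma 3.58.1 and R 4.3.3 (lmFit, eBayes), tests were 2-sided, and Benjamini-Hochberg adjusted p under 0.05 was called. The 45037 probe sets other than controls were also tested one by one. The fit was tested on simulated data. Members and lists were chosen with earlier results of these data known. Named genes were all members, called or lowest-p genes of the other mesothelial list, the closest genes by correlation, and Psca, called in the bladder list. Called genes of the remaining lists were not named. Nr5a1 was named as a defining marker. Six2, Osr1, Sall1, Nphs1, Pax8, Lhx1, Wnt9b and Gata4 were chosen after their values were seen. So were Krt5, Krt14, the bladder uroplakins, Tcf21 and the genes lowest in wild type 1B. Alternatives were other scalings, a filter on dim genes, other variance models, other probe set choices, the Actb ratio as a covariate and each array left out. No array pair held identical values (0 pairs).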

Additional observations from a re-analysis of the deposited data

How the results depend on the processing

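No paired analysis was possible because the groups share no replicate numbers. The number of the 7 genes that passed was small and moved with single arrays. Leaving out 1 array at a time gave 0 to 3 for Ednrb null against wild type (3 without wild type 1C, 1 without 1B), 0 to 4 for Ednrb NCC null against wild type (0 without Ednrb NCC null 5 or 6, 4 without wild type 1C) and 0 to 1 between the mutants. Their median difference ranged from 0.28 to 0.95, from 0.54 to 1.21 and from -0.38 to -0.21 in the same order. Genes called over the whole array ranged from 477 to 1102, 268 to 1099 and 507 to 1309, against 917, 902 and 1187, with the lowest counts without Ednrb null 29, Ednrb NCC null 6 and Ednrb NCC null 6. Upk1b ranged from -0.20 to 0.30 in Ednrb null against wild type, and Upk3b from -0.149 to 0.023 between the mutants.

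For Ednrb NCC null against wild type, 2 members passed without the dimmest genes or with array weights and 3 with the Actb covariate. Between the mutants 1 passed with quantile normalization, without the dimmest genes or with array weights, and 2 with only the 2 groups fitted. The Actb covariate gave a median of 0.049 with 131 genes called in Ednrb null against wild type, and of -1.043 with 215 between the mutants. It turned Upk1b (-0.184), Muc16 (-0.007) and Msln (-0.091) in the first of these, and Bnc1 (-1.043) between the mutants. Genes called were 561 with only Ednrb null and wild type fitted, 2321 between the mutants with array weights, and 2265, 1611 and 1984 with every probe set tested. The cause was not tested. Lrrn4 had no value without the dimmest genes.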
